A study of Mus musculus with 12 samples.

Results

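The genes of the BACH and MAF families encode basic leucine zipper transcription factors, the class to which BATF itself belongs, and this account covers BATF binding at 7 of them: Bach1, Bach2, Maf, Mafk, Mafg, Maff and Nfe2l2. A BATF peak was assigned to a gene when its summit lay in the gene body or within 200 kb of it on the mouse genome build mm10, which gave 19 of the 6260 peaks in the 4 BATF peak lists used. Peaks sharing at least 1 bp were joined into regions, and 15 of the 5873 regions of the genome belonged to these genes. The chromatin came from naive CD4+CD62L+ T cells of C57BL6/J mice that had been activated through CD3 and CD28 and grown into helper cells in culture. Th9 cells were made with IL-4, IL-2, TGF-β and an antibody to IFNγ, and Th17 cells with IL-6, TGF-β, IL-23, IL-1β and antibodies to IFNγ, IL-4 and IL-2. Each cell type gave 2 BATF chromatin immunoprecipitation (ChIP) libraries, numbered 1 and 2 for Th9 and 3 and 4 for Th17, and each was paired with input DNA and an IgG control carrying its number. The labels do not say whether the 2 libraries of a cell type came from separate mice or cultures, so their spread may be technical. These data hold no expression values, so the cell identities rest on the labels alone.

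AP-1 factors such as BATF with a JUN partner bind the heptamer TGAGTCA, which reads TGACTCA on the other strand. BACH1 and BACH2 are repressors and NRF2, the product of Nfe2l2, is an activator of the cap'n'collar (CNC) family. They pair with the small MAF proteins MAFK, MAFG and MAFF at a longer element whose core resembles the AP-1 site. c-MAF, the product of Maf, is a large MAF with an activation domain of its own that drives cytokine genes such as Il10, Il21 and Il4. In T cells BACH2 holds back effector differentiation and can occupy AP-1 sites in competition with AP-1 factors.

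The length of the lists was uneven. The Th9 libraries gave 1709 and 241 peaks and the Th17 libraries 4111 and 199, and only 104 of the 4206 Th17 regions were called in both Th17 libraries. The lists hold no read counts, and the methods give a single approximate number of reads per library rather than the number of each. The reads behind each peak are therefore unknown, the number of peaks limits the precision, and the lack of a peak does not show that BATF was absent.

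The sequences that carry what follows come from 5 Th17 regions at Bach2 and the strongest region at Maf. They are read from the plus strand of RefSeq GRCm38.p6, the same assembly as mm10. The first 4 sequences below are the 201 bases centred on the summit, with the AP-1 heptamer in capitals, and stand at chr4:32179839-32180039, chr4:32249792-32249992, chr4:32250652-32250852 and chr8:115771099-115771299. These 4 are the regions of the 15 with that heptamer.
Bach2 upstream region: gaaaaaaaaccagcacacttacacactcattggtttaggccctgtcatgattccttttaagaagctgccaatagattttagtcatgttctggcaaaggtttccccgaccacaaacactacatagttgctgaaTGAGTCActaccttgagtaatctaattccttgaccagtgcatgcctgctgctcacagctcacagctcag
Bach2 first intronic region: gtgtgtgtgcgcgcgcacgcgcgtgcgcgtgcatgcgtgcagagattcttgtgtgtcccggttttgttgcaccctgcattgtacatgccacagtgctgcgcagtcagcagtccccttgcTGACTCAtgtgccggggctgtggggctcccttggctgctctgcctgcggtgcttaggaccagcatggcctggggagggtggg
Bach2 paired intronic region: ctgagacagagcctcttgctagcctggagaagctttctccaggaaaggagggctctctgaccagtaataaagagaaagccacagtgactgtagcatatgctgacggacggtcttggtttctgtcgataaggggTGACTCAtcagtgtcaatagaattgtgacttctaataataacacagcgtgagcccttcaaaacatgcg
Maf upstream region: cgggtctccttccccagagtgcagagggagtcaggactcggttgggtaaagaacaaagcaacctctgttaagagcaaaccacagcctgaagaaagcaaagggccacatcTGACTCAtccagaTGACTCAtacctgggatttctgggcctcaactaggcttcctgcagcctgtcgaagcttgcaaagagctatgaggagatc
The strongest of the 19 peaks lay at Bach2, 7.24 kb downstream of its curated start site, and held no AP-1 heptamer. The name start-site region is a short label only, as no region lay within 2 kb of a curated start site of these genes. The 30 bases around the summit of this peak, chr4:32424659-32424688, are shown with a match to the MAF and CNC pattern described below in capitals.
Bach2 start-site region: cacaGCACAGTCAttttgtgtctgatttgg
A region just past the end of Bach2 was also called in both Th17 libraries without an AP-1 heptamer. Its 201 bases, chr4:32588351-32588551, are shown with the heptamers that differ from the AP-1 site at 1 base in capitals.
Bach2 downstream region: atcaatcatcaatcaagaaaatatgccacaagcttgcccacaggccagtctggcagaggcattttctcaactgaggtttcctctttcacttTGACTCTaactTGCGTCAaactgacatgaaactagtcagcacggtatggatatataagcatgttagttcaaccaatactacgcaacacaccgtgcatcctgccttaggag

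Bach2 held most of the BATF binding among these genes: 9 of the 15 regions, 6 of them in Th17 cells and 3 in Th9 cells. Maf held 3 regions, Mafg, Maff and Nfe2l2 held 1 each, and Bach1 and Mafk held none in any of the 12 lists. The question here was at which of these genes BATF was bound and in which cell type.

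By library, 4 and 2 peaks lay at these genes in Th9 libraries 1 and 2, and 10 and 3 in Th17 libraries 3 and 4. Th17 library 3 stood above the rest, while Th17 library 4 fell between the Th9 libraries, so the cell types overlapped. The mean was 3 ± 1.41 peaks in Th9 and 6.5 ± 4.95 in Th17 (SD, n = 2 libraries each), a difference of 3.5 with p = 0.667 in an exact two-sided permutation test whose smallest possible p is 0.333. As a share of each list, these peaks made up 0.234% (95% exact binomial interval 0.0638 to 0.598) and 0.830% (0.101 to 2.97) in the Th9 libraries. The shares were 0.243% (0.117 to 0.447) and 1.51% (0.312 to 4.34) in the Th17 libraries. The intervals, which cover counting error only, overlapped between cell types, and the higher shares belonged to the short list of each cell type.

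At the level of genes, 4 of the 7 had a Th9 region (Bach2, Maf, Mafg and Maff) against 29% of 26180 annotated genes. In Th17 cells 4 of the 7 had one (Bach2, Maf, Maff and Nfe2l2) against 54.1% of all genes. Either cell type gave 5 of 7 against 64.9%. The shares for Th17 and for either cell type were thus close to those of the genome. The Th9 share stood above it, on 7 genes and without a test. One gene, Maff, had a region shared by Th9 and Th17, against 4.66% of all genes.

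**Figure D1:**
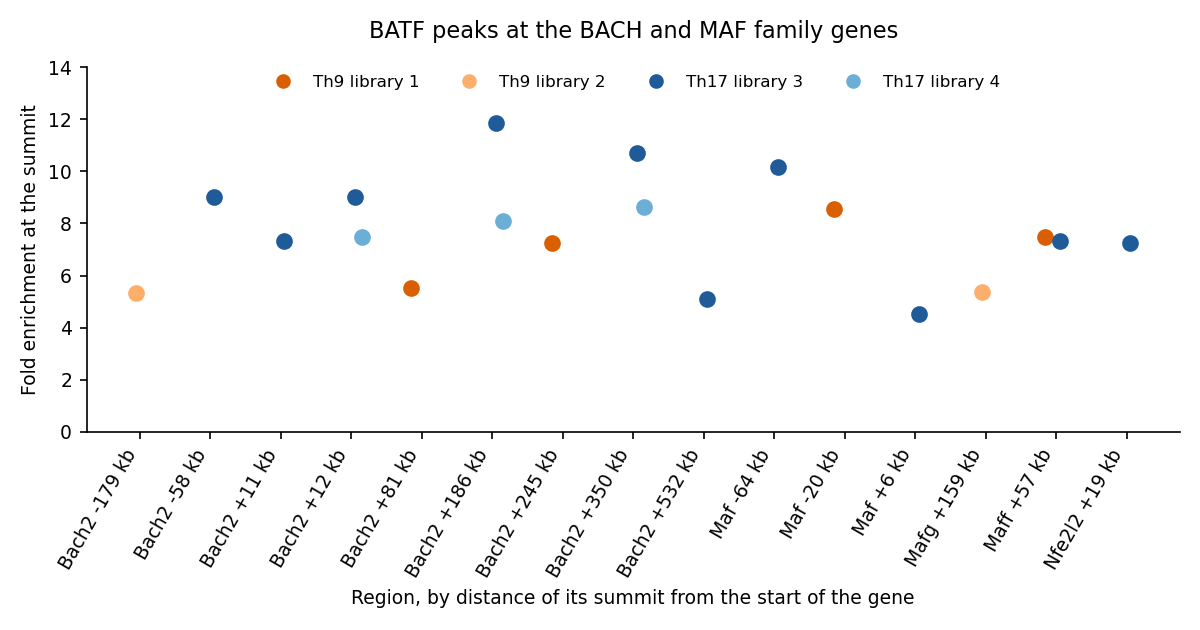
Fold enrichment at the summit (vertical axis, fold over the controls) of each of the 19 BATF peaks, by region (horizontal axis, distance of the summit from the start of the gene in kb). Each point is 1 peak in 1 library, shifted slightly by library. Bach2 holds 9 of the 15 regions, and the values run from 4.52 to 11.9.

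Across the 19 peaks, fold enrichment ran from 4.52 to 11.9 with a median of 7.46, and -log10 q from 2.60 to 16.9 with a median of 7.42. The authors' caller accepted peaks at q below 0.01. A total of 6 regions lay inside a member gene and 8 lay inside or within 10 kb of one, but none lay within 2 kb of a curated start site of these genes. For 7 of the 15 regions the nearest curated start site of any gene was that of the member itself.

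BACH1 and BACH2 are the repressors of the group. Bach1 (chr16:87698954-87733346, plus strand), known for silencing the heme oxygenase gene Hmox1, had no BATF region within 200 kb, and the nearest lay 926 kb away. Bach2 (chr4:32238413-32586109, plus strand) spans 348 kb, the longest gene of the 7. Its RefSeq gene begins with predicted transcripts, while the curated transcripts start well inside it, 7.24 kb before the region at 186 kb. Its window was 748 kb against 404 to 434 kb for the others, and how far the count at Bach2 goes with this length was not tested. Per megabase of window, Bach2 held 4.01 Th9 and 8.02 Th17 regions, against 0.689 and 1.54 over the genome, so it exceeded the genome average in both cell types. Maf (2.48 and 4.95) and Maff (2.42 and 2.42) did so as well, and Maff did it with 1 region. The counts at Bach2 moved with the lists. Its 3 Th9 regions fell to 1 without Th9 library 1 or at a -log10 q of at least 5. Its 6 Th17 regions fell to 3 without Th17 library 3 or with the 199 top peaks of each library.

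**Figure D2:**
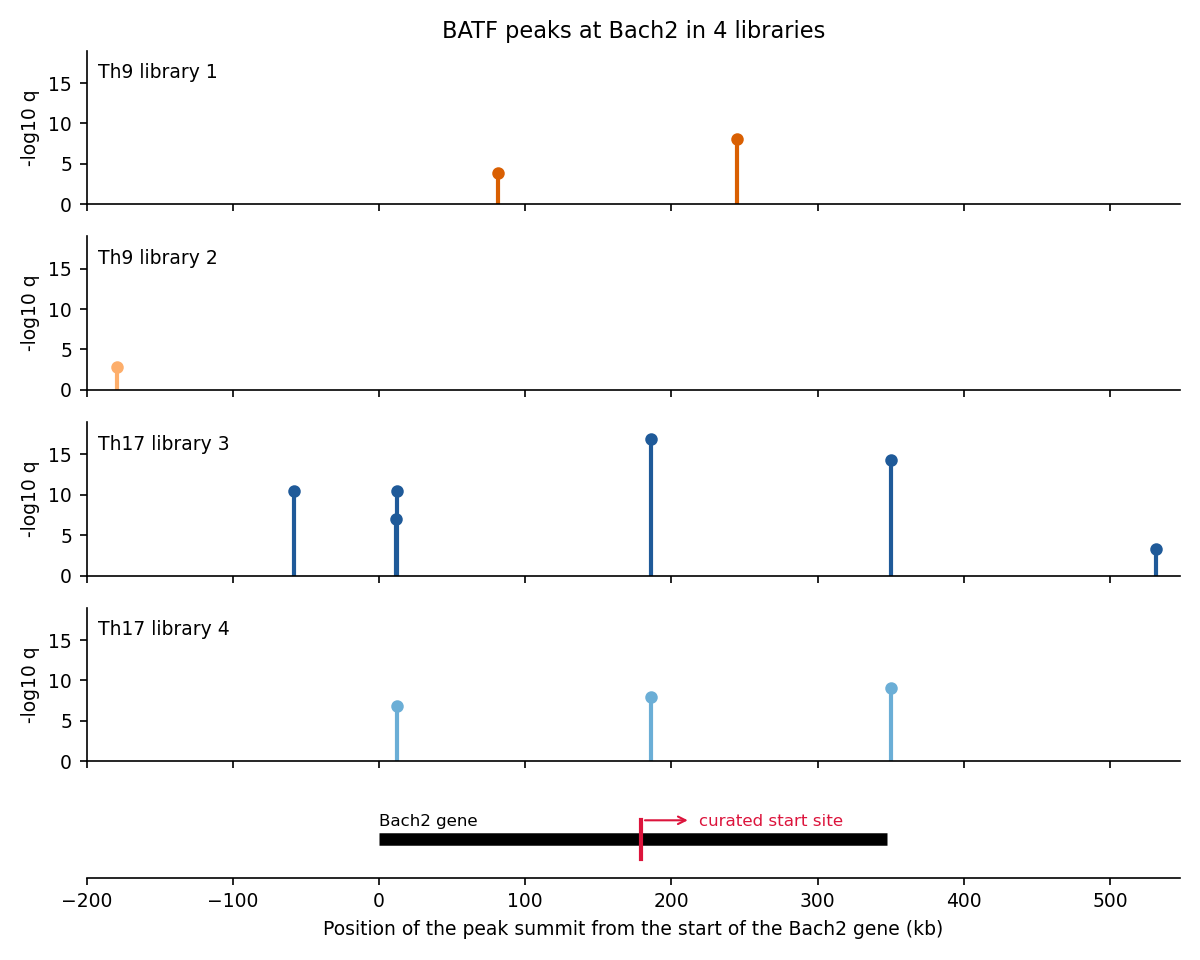
BATF peaks around Bach2 in each of the 4 libraries. The horizontal axis is the distance of the summit from the start of the gene (kb), the vertical axis is -log10 q, each stem is 1 peak, and the black bar is the gene with its curated start site in red. The 3 peaks of Th17 library 4 stand at the places of 3 of the 6 peaks of Th17 library 3. No Th9 peak shares a place with a Th17 peak, where 4.66% of all genes had a shared region.

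In Th17 cells, 3 regions at Bach2 were called in both libraries. At the start-site region (chr4:32424536-32424760), 7.24 kb downstream of the curated start in intron 1 and overlapping a UTR exon of a predicted transcript, BATF was enriched 11.9-fold in library 3 (-log10 q 16.9) and 8.11-fold in library 4 (7.93). This was the strongest of the 19 peaks and ranked 103 of 4111 in library 3 and 69 of 199 in library 4. The summits of the 2 libraries lay 43 bp apart, and the library 4 peak was absent from the list called against input alone.

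The downstream region (chr4:32588355-32588555) lay 2.34 kb beyond the end of the gene, with the start of Gja10, a connexin gene, as the nearest start site at 13.9 kb. Enrichment there was 10.7-fold in library 3 (-log10 q 14.3) and 8.65-fold in library 4 (9.11). The 2 summits were 5 bp apart, the closest pair of the repeated regions, and both peaks also stood in the lists against input alone and against IgG alone.

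The paired intronic region (chr4:32250654-32251103) lay 12.3 kb from the start of the gene, in intron 1 of its predicted transcripts. Enrichment was 9.03-fold in library 3 (-log10 q 10.5) and 7.48-fold in library 4 (6.81). Its summits were 189 bp apart, and the AP-1 heptamer lay 36 bp from the summit of library 3 but 153 bp from that of library 4. The library 4 peak was not called against IgG alone.

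Library 3 alone gave the other Th17 regions at Bach2. The first intronic region (chr4:32249857-32250104) stood 860 bp before the paired one and reached 7.34-fold (-log10 q 7.04), and the upstream region (chr4:32179846-32180077), 58.5 kb before the gene, reached 9.03-fold (10.5). A weak region in an intron of Mdn1, a ribosome assembly gene, lay 184 kb past Bach2, with 5.08-fold enrichment (3.32) and no peak against input alone.

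All 3 peaks of Th17 library 4 at these genes lay at Bach2, and each coincided with a peak of library 3. Such coincidence was common, since 104 regions of the genome were called in both Th17 libraries and library 4 held 199 peaks in all. Of all genes, 2.32% had a region called in both Th17 libraries. Bach2 had 3, a number reached by 4 genes or 0.0153%, and Bach2 was the only protein-coding gene among them. The others, named after their values were seen, were Mir101c, 4930433N12Rik and Gm31138, which lie within one another's windows at the start of chromosome 9 and share the same 3 regions (between chr9:3007596 and chr9:3031294). With 6 Th17 regions in either library, Bach2 was among 50 genes (0.191%) with at least that many. Among 570 genes of 300 kb or longer, 7 (1.23%) had as many. No such share among long genes was computed for regions called in both libraries, so the 0.0153% takes no account of the 748 kb window of Bach2. The count of regions called in both libraries, and its rank, depended on the control and on list length. At a -log10 q of at least 5 it stayed 3, reached by Bach2 alone. It was 2 with the 199 top peaks of each library, reached by 5 genes, and 2 against input alone and against IgG alone, reached by 16 genes each. When a peak had to stand in both single-control lists it was 1, reached by 435 genes. These ranks were added after the data had been seen.

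**Figure D3:**
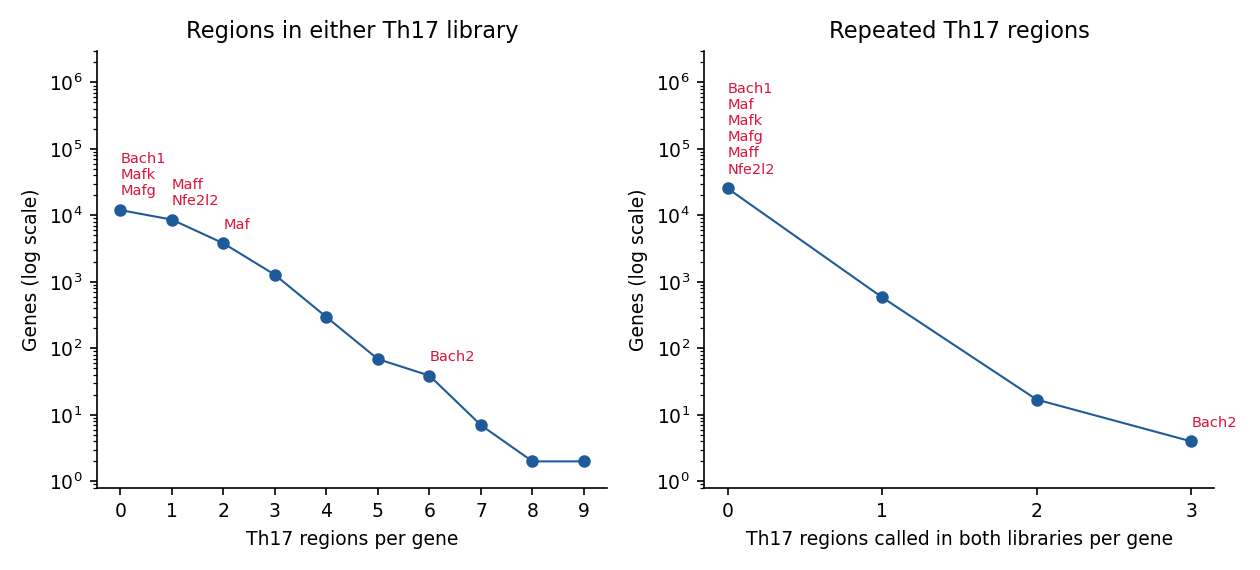
Number of genes (vertical axis, log scale) by the number of Th17 BATF regions in the gene body or within 200 kb (horizontal axis), for regions of either Th17 library (left) and regions called in both (right). The 7 genes are written in red at their counts, and Bach2 stands at 6 on the left and at 3 on the right.

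Th9 cells had 3 regions at Bach2. In library 1 an intronic region 65.5 kb past the curated start (chr4:32482804-32483145) was enriched 7.24-fold (-log10 q 8.12, rank 171 of 1709). The same library had a weaker region at chr4:32319727-32319919, 81.4 kb from the start of the gene, with 5.54-fold enrichment (3.82). Library 2 gave only a region 179 kb before the gene (chr4:32059338-32059582) at 5.33-fold (2.85), nearer to Map3k7, a kinase gene. None of these was called in both Th9 libraries.

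No Th9 region at Bach2 overlapped a Th17 region, and the nearest pair of summits was 58.3 kb apart. Overlap was rare over the genome too, where 1878 Th9 and 4206 Th17 regions joined into 5873. Of all genes, 4.66% had a region shared by the cell types. No Th9 peak of any of the lists, single controls included, fell in a Th17 region of Bach2, and the same held the other way round. Because the lists differ in length and hold no signal at places without a peak, whether binding itself differed there was not tested.

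c-MAF is the large MAF of the group. Maf is a short gene (chr8:115703253-115706894, minus strand) with 3 regions, none repeated. In Th17 library 3 the upstream region (chr8:115771102-115771295), 64.3 kb before the gene, was enriched 10.2-fold (-log10 q 13.0, rank 197 of 4111) and held 2 AP-1 heptamers, 12 and 25 bp from its summit. In Th9 library 1 a region 20.1 kb before the gene, in an intron of the noncoding gene Gm30712 (chr8:115726928-115727164), reached 8.56-fold (9.59, rank 106 of 1709). The last one, 2.51 kb past the end of the gene (chr8:115700685-115700877), was seen only in Th17 library 3 at 4.52-fold (2.60), and 81.1% of the bases around its summit were repeat-masked. No region at Maf was shared by the cell types, where 4.66% of all genes had a shared region. All 3 peaks at Maf were called against each control as well.

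Of the 3 small MAFs, which lack an activation domain and serve as partners, Mafg and Maff had a region each, beside 64.9% of all genes, and neither region lay within 10 kb of the gene. Mafk (chr5:139791536-139802653, plus strand) had no region in its window, and the nearest lay 409 kb away. Mafg (chr11:120625117-120634955, minus strand) had 1 region, 150 kb away in an intron of Hgs, an endosomal sorting gene, seen in Th9 library 2 at 5.38-fold (-log10 q 3.68). That peak was in neither single-control list. The window of Mafg holds 35 protein-coding genes, so the region is one among many neighbours.

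Maff (chr15:79346621-79359078, plus strand) had the region shared by both cell types (chr15:79403724-79403928), with 7.46-fold enrichment in Th9 library 1 (-log10 q 7.42) and 7.34-fold in Th17 library 3 (7.04). The 2 summits lay 30 bp apart. The fold values were near each other, but by q the peaks ranked 237 of 1709 in Th9 library 1 and 727 of 4111 in Th17 library 3. Whether the level of binding was alike was not tested. The region lay 44.7 kb beyond Maff and 488 bp from the start of Tmem184b, a membrane protein gene, and both peaks were absent from the lists against IgG alone.

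NRF2 activates genes of glutathione, iron and redox metabolism. Nfe2l2 (chr2:75675513-75704663, minus strand) had 1 region in its intron 1 (chr2:75685605-75685788), 18.95 kb from the start site, at 7.26-fold in Th17 library 3 (-log10 q 7.04). It was called against IgG alone but not against input alone, and was in no other library.

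Of the 19 peaks, 12 also stood in both single-control lists of their library, 3 only in the input list, 3 only in the IgG list and 1 in neither. At the edge of the window, the outermost region counted was the one 184 kb from Bach2, and the nearest one left out lay 205 kb from Maff (-log10 q 5.02). For Bach2 and Maf the nearest regions left out were 276 and 278 kb away, for Nfe2l2 235 kb and for Mafg 419 kb.

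The AP-1 heptamer lay within 100 bp of the summit in 4 of the 15 regions (26.7%, exact interval 7.79 to 55.1). It was in 4 of 10 Th17 regions and 0 of 6 Th9 regions, the latter with an interval of up to 45.9%. The heptamer was in 16.95% of the 5858 other regions, or 15.9% in Th9 and 19.1% in Th17, and in 3.41% of equal windows 2000 bp to either side. The shares of the other regions fall inside the intervals of the few regions here. All 4 regions with the heptamer came from Th17 library 3, and 1 of them was called in library 4 too. Among other regions called in 2 or more libraries 48.5% held it, against 1 of the 4 such regions here, the paired intronic region of Bach2.

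**Figure D4:**
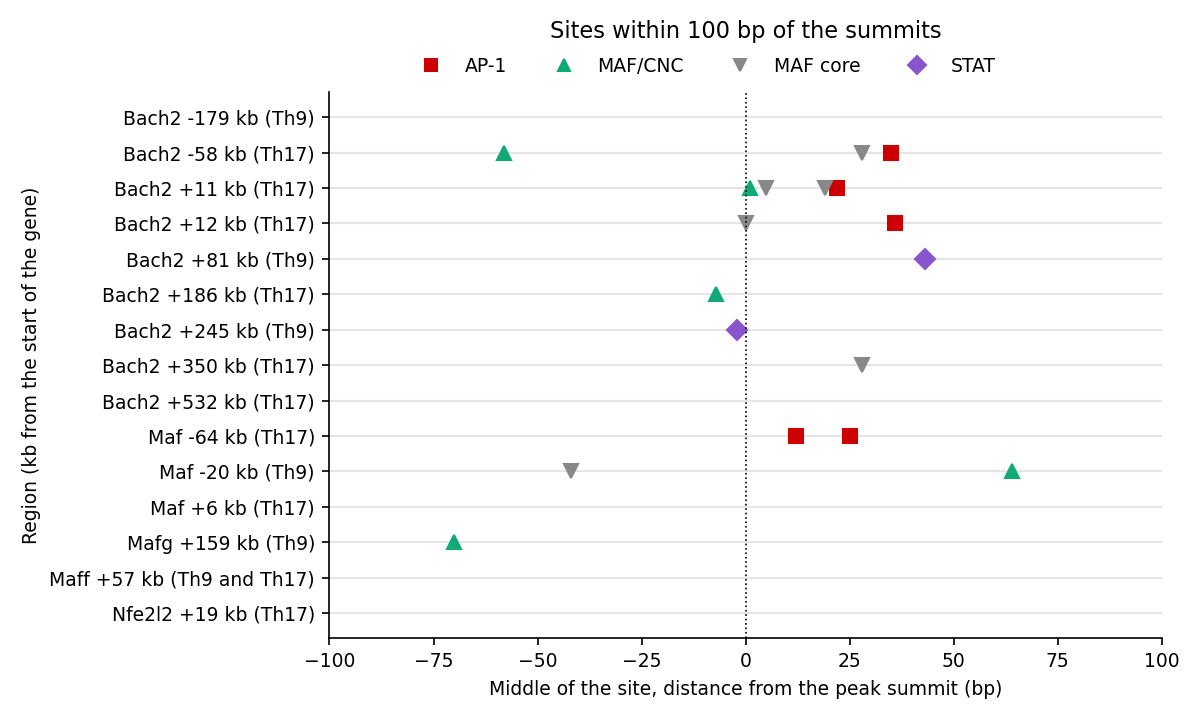
Position of AP-1, MAF/CNC, MAF core and STAT sites (middle of the site, bp from the summit, horizontal axis) in the 15 regions (rows, named by gene and distance from its start in kb, with the cell type). The 4 regions with AP-1 sites are all Th17 and the 2 with STAT sites both Th9. Among other regions, STAT sites stood in 9.67% of Th9 and 8.61% of Th17 regions.

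The pattern TGACNNNGC, the part that MAF and CNC pairs read, was searched on both strands and stood in 5 regions (33.3%, 11.8 to 61.6), against 7.99% of other regions (7.31 to 8.71) and 5.46% of the flanks. Among other regions called in 2 or more libraries 12.8% held it. It was in the upstream, first intronic and start-site regions of Bach2, the Th9 region of Maf at 20.1 kb and the region near Mafg. In the upstream region of Bach2 and the regions of Maf and Mafg the match lay 58, 64 and 70 bp from the summit. At the start-site region the match GCACAGTCA lay 7 bp from the summit of library 3 and 36 bp from that of library 4. In the first intronic region the match GCGCAGTCA lay 1 bp from the summit, and the AP-1 heptamer 22 bp from it overlapped TGCTGAC, a match to the MAF core TGCTGAN. That core was in 5 regions (33.3%) against 16.8% of others. These counts rest on a few regions, most of them at 1 gene, and have no test.

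The STAT pattern TTCNNNGAA was in 2 regions (13.3%, exact interval 1.66 to 40.5) against 8.86% of others, both of them Th9 regions at Bach2. By cell type it was in 2 of 6 Th9 regions (4.33 to 77.7) and 0 of 10 Th17 regions (0 to 30.8). The shares of other regions, 9.67% in Th9 and 8.61% in Th17, were near each other and fall inside these intervals. In the stronger of the 2 regions with the pattern, the match TTCTGGGAA lay 2 bp from the summit. In the weaker, the match TTCCTAGAA lay 43 bp from it. The cAMP response element TGACGTCA, the NF-E2 site TGACTCAGC and both AP-1 and IRF composite elements, in which TTTC stands 4 bases before TGANTCA or GAAA directly adjoins it, were in none of the 15. The composites were in 0.717% and 0.973% of other regions, and 0 of 15 allows a share of up to 21.8% by the exact interval.

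Promoter sequence, from 250 bases before to 50 after a start, was at hand for 6 of the 7 genes (all but Maf), and no peak of any list touched it. The AP-1 heptamer was in none of the 6, against 5.20% of 32851 promoters. The MAF and CNC pattern was in those of Mafk, Mafg, Maff and Nfe2l2, against 12.4% of promoters, and the cAMP response element was found at Maff, against 1.79%. The STAT pattern was found at Bach2 and Maff, against 8.30%. These shares are of single promoters, whereas Maff had several promoters and was counted as a gene, so the 2 are not like for like.

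Of 23 further genes of the pathway, 17 (73.9%) had a region in a window set by the same rule and 8 (34.8%) had one inside or within 10 kb, where all genes gave 64.9% and 13.1%. All 6 large MAF and CNC relatives had a region, but only Mafa, a large MAF of pancreatic beta cells, had one close by, 0.637 kb before its start in Th9 library 2 (7.47-fold, -log10 q 6.75). Of the NRF2 inhibitor complex, Cul3 had a distant region and Keap1 none. Among 11 targets of NRF2 and BACH1, 6 had a region. The strongest close one lay in Gclm, a subunit of the glutathione-making enzyme, with 8.54-fold enrichment in Th9 library 1 (9.59) and an AP-1 heptamer. Txnrd1, Fth1 and Me1 had weaker close regions in Th17 library 3, from 4.57-fold to 6.21-fold, and Nqo1, Slc7a11, Srxn1, Ftl1 and G6pdx had none in their windows.

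All 4 genes listed as acted on by BACH2 or c-MAF had a region, beside 64.9% of all genes. Prdm1, whose product Blimp-1 is held down by BACH2, had 2 intronic peaks in Th9 library 1, of 7.59-fold (-log10 q 8.27) and 7.55-fold (7.43). Il10, a c-MAF target, had an intronic peak in Th17 library 4 at 10.3-fold (12.7, rank 27 of 199). Il21 had a peak 0.429 kb before its start in Th17 library 3 at 6.78-fold (6.001), with a match to the MAF and CNC pattern. Il21 and Il4 each had a region shared by both cell types, as 4.66% of all genes did. Each of these close peaks stood in a single library.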

How the data were processed

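BATF ChIP-seq was made on fixed Th9 and Th17 cells, 2 libraries per cell type. Per the methods and labels, the authors trimmed reads with Trim Galore 0.4.3, aligned them to mm10 with Bowtie2 (no version is stated for the ChIP libraries) and called peaks in each library with MACS2 2.1.0 in paired-end mode, keeping duplicates, at q 0.01. They deposited 12 peak lists, 3 per BATF library (against input and IgG together, input alone and IgG alone, known from the list names), and did not pool libraries. The values used are the fold enrichment, a ratio over the controls, and the −log10 q-value of each deposited peak. The lists against both controls were used, with the others as a check.

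Summits were assigned to RefSeq genes (annotation release 108.20200622, GRCm38.p6) with a curated transcript, and motifs were searched within 100 bp of summits, with Python 3.11.15, pandas 2.3.3, scipy 1.17.1 and pysam 0.24.0. Counting, merging and motif search were tested on simulated data. Peaks per library were compared by an exact permutation test, and shares have exact (Clopper-Pearson) 95% intervals. By rule, every member is named, with full values for regions in the gene or within 10 kb, called in 2 or more libraries or holding an AP-1 site, and pathway genes are named where a region is that close. Other genes named were neighbours or belong to small counts. The members, lists and tests were chosen with earlier results of these data known. Alternatives were another control, a stricter q, equal list lengths, smaller windows, the nearest start site, another annotation (GENCODE), another overlap, another motif or window, leaving out each library, and both libraries required. One gene of the pathway lists is not reported here.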

Additional observations from a re-analysis of the deposited data

Results flagged for a closer look

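One peak lay outside the lists on which the report rests. At Bach2, 42.5 kb from the start of the gene (chr4:32280776-32280952), Th17 library 3 had a peak in the list against IgG alone that the call against both controls lacked, with a -log10 q of 2.54, 4.52-fold enrichment and no AP-1 heptamer near the summit. No other peak of the single-control lists at the 7 genes lacked a counterpart in the combined call.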

How the results depend on the processing

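Of 60 recomputed values, 42 kept their direction or stayed within the range set for them, 16 moved and 2 reversed. The excess of Th17 over Th9 regions, 4 in the main setting, ran from -3 to 8 when 1 library was left out and was -3 without Th17 library 3 (replicate 3), the longest list. It was -1 with the 199 top peaks of each library, and elsewhere between 3 and 6. No setting could reach p below 0.333. Genes with a region, 5 in the main setting, were 3 against input alone, against IgG alone, within 10 kb, by nearest start site and with equal lists, 2 with peaks that also stood in both single-control lists, 1 when both libraries had to hold the region, and 4 to 5 with 1 library left out. The shared region, 1 in the main setting, became 0 against IgG alone, within 10 kb, with peaks also in both single-control lists, with equal lists and with both libraries required, and was 0 to 1 with 1 library left out (0 without Th9 library 1 or Th17 library 3, the libraries that carry it). The share of regions with the AP-1 heptamer was 0% with equal lists and ran from 0 to 33.3% with 1 library left out, 0% without Th17 library 3. Beyond the settings' own smaller sets of peaks, the cause was not tested. No paired analysis was possible because no replicate number occurs in both cell types. Lists without read counts limit all of this, and leaving out Th17 library 3 left 9 of the 15 regions.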

Other observations

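Heptamers that differ from the AP-1 site at 1 base, a pattern searched after the sequences had been seen, lay within 100 bp of the summit in 7 of the 11 regions without the site itself. Over all 15 regions the count was 10 (66.7%, exact interval 38.4 to 88.2), beside 52.1% of other regions, 70.1% of other regions called in 2 or more libraries and 43.1% of the flanks. In the downstream region of Bach2, whose 2 Th17 summits lay closest together, TGACTCT and TGCGTCA lay 6 and 5 bp to either side of the summit, and in the shared region near Maff the matches were GGAGTCA and TGACTGA.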
